A study of Mus musculus with 9 samples.

Results

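The genes described here encode the constitutive 26S proteasome of the mouse and the deubiquitinases that dock on it. They were chosen by name and comprise the 7 alpha and 7 beta subunits of the 20S core particle, 19 genes of the 19S regulatory particle, Usp14 and Uchl5. All 35 were found by symbol among the 36528 gene numbers of the files. The 9 samples are RNA-seq libraries of Cd11b+ myeloid cells sorted from brain, most of which are microglia, of mice aged 11 to 12 months. Tau-P301L transgenic mice gave 5 libraries, 2 female and 3 male, and their non-transgenic littermates, labelled wild type, gave 4 libraries, 2 female and 2 male. No source used here gives the promoter or the line behind the transgene, and the human tau transcript was not measured. The labels do not say whether each library came from its own mouse, so every p-value measures only the spread between these libraries. The choice of genes was made with their Tau-P301L against wild-type values known, so the genotype differences given here are a description that was not tested for the group.

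The proteasome is the protease that degrades most ubiquitin-tagged protein in the cytosol and nucleus. Its barrel-shaped core holds the cutting sites inside stacked alpha and beta rings, and the regulatory particle at either end binds the ubiquitin chain, removes it, unfolds the substrate with a ring of ATPases and threads it into the core. USP14 and UCHL5 trim ubiquitin chains on the regulatory particle before the substrate is committed, and USP14 can slow degradation by doing so. In microglia the proteasome serves turnover of signalling proteins such as IkB and supplies peptides for antigen presentation, for which interferon swaps the constitutive catalytic subunits for immunoproteasome subunits.

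The libraries were shallow, with 1494727 to 3793606 reads assigned to genes, and the wild-type libraries were deeper on average (in units of 1e6 reads, 3.10 ± 0.483, SD, n = 4) than the Tau-P301L libraries (2.41 ± 0.581, n = 5, two-sided exact permutation test over 126 splits, p = 0.0952). Levels are in CPM (reads per 1e6 reads of the library, after TMM scaling), on which a count of 3 reads was 0.823 to 2.07. The 9 microglial markers summed to 10843 to 14118 CPM in wild type and 9243 to 15588 CPM in Tau-P301L, all 9 were detected, and 4 of 5 T and NK cell markers had no read. Of the lists for cells that the sort should remove, the 6 astrocyte markers summed to 305 to 373 CPM in wild type and to 300.0 to 652 CPM in Tau-P301L, with the highest sums in Tau-P301L libraries 3, 4 and 5. The 9 neuronal markers summed to 198 to 323 CPM and to 125 to 245 CPM. The 6 oligodendrocyte markers summed to 1423 CPM in Tau-P301L library 5 and to 324 to 693 CPM in the other 8 libraries. Neutrophils, by contrast, are myeloid cells that a Cd11b sort can keep. Their 6 markers summed to 224 CPM in Tau-P301L library 4 and to 0 to 63.8 CPM elsewhere. In Tau-P301L the estimate was lower for 8 of the 9 microglial markers and higher for 1 (median log2 fold change -0.24). All 5 tested astrocyte markers had a higher estimate and all 7 tested neuronal markers a lower estimate in Tau-P301L, and no marker passed the test. The share of reads from mitochondrially encoded genes ran from 8.61% to 21.4% and was highest in Tau-P301L library 3.

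Proteasome transcripts were a small part of these libraries. The 35 genes together held 11126 reads over all 9 libraries, between 666 and 1599 per library, which was 0.0444% ± 0.00672 of the reads in wild type (n = 4) and 0.0466% ± 0.00574 in Tau-P301L (n = 5). Between 22 and 32 of the 35 genes reached 10 reads in a library, and between 0 and 4 of them had none. After the low-count filter 31 of the 35 were tested, and 22 of these 31 lay below the median level of all tested genes (10.2 against 15.9 CPM). In bulk samples fewer cells of a type and less RNA per cell cannot be told apart, which holds for every level given here.

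Per transcript length, the regulatory particle genes had a higher median level than the core genes. On the authors' RPKM scale the wild-type level of the 35 genes had a median of 1.52 and ran from 0.0190 for Psmb5 to 6.34 for Psmc3, an ATPase of the base. The median was 2.71 RPKM for the 6 ATPases, 1.62 RPKM for the 8 lid genes, 1.96 RPKM for all 19 regulatory particle genes and 1.02 RPKM for the 14 core genes. The core holds 3 and the regulatory particle 1 of the 4 genes that failed the low-count filter. At least 50% of their sequence windows recur at another locus, as described below, and the part of this in the difference was not tested. The highest in wild type after Psmc3 (6.34 ± 2.06, n = 4) were Psmd7, the inactive partner of the lid's deubiquitinase (4.86 ± 0.796), Psmc5 (4.60 ± 0.545) and Psma4 (4.01 ± 0.353), whose ranges over libraries were not tested against each other. Among the catalytic genes, Psmb6 (1.17 ± 0.324 RPKM) and Psmb7 (1.03 ± 0.273 RPKM) lay within each other's SD, whereas Psmb5, which encodes the chymotrypsin-like site, was nearly absent.

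**Figure D1:**
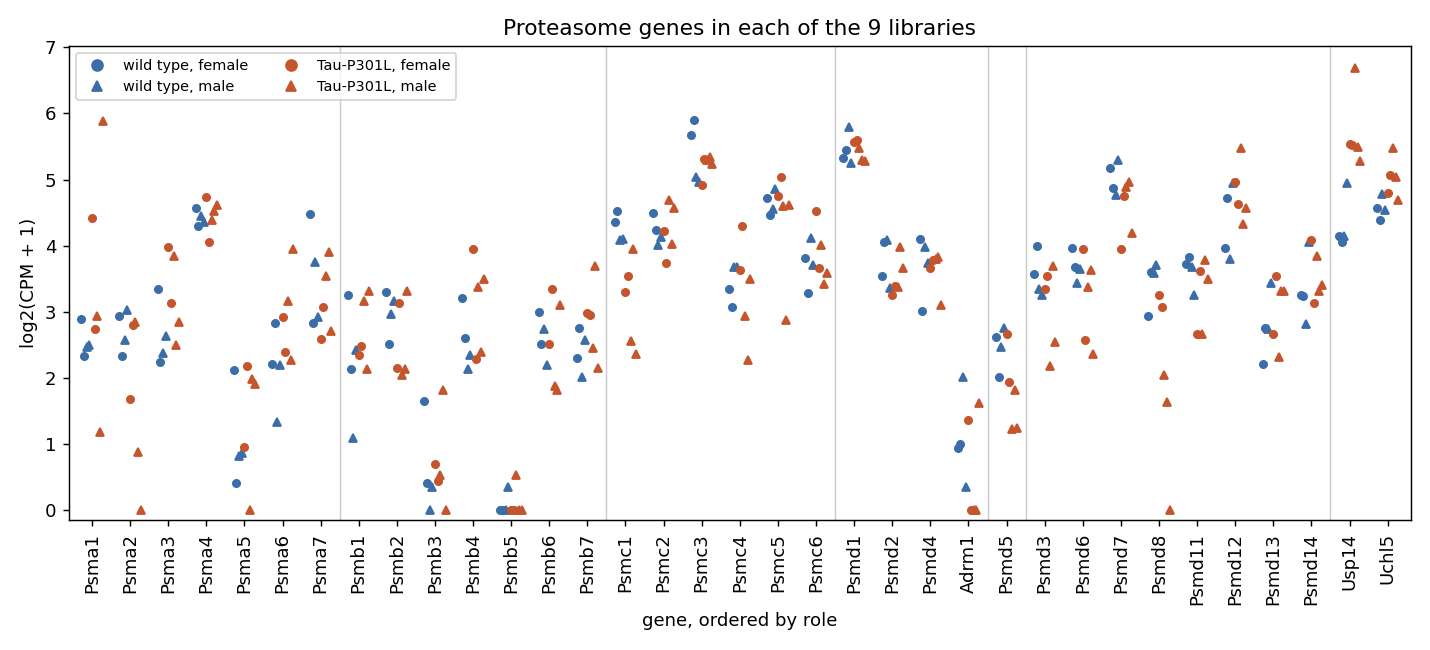
Level of each of the 35 genes in every library, ordered by role along the x axis, on the y axis as log2(CPM + 1) after TMM scaling. Blue marks the 4 wild-type and red the 5 Tau-P301L libraries, with circles for females and triangles for males; the 2 genotypes overlap for all genes except Usp14 and Psmc1, and Psmb5, Psmb3, Adrm1 and Psma5 sit at the bottom.

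The 4 genes that failed the filter were Psmb5, Psmb3, Psma5 and Adrm1. Psmb5 had 1 read in wild-type library 4, 1 read in Tau-P301L library 3 and none in the other 7 libraries. Psmb3, a non-catalytic beta subunit, had 7, 1, 0 and 1 reads in wild type and 2, 1, 1, 6 and 0 in Tau-P301L. Psma5, an alpha subunit, had 11, 1, 2 and 3 reads against 3, 10, 0, 7 and 4. Adrm1, the ubiquitin receptor that recruits UCHL5, had 3, 3, 8 and 1 reads against 5, 0, 0, 0 and 3. All 4 therefore had at most 11 reads in any library. The filter left them untested, and no difference could be read from such counts at this depth.

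These 4 genes share a feature of sequence. The deposited counts hold reads that aligned to 1 place only, so a read from a stretch that a second locus repeats could not be counted. Over the longest coding transcript of each gene in GENCODE M21 (GRCm38), the share of 50-base windows found unchanged in a gene at another locus was 78.0% for Adrm1, 55.8% for Psmb3, 54.5% for Psma5 and 50% for Psmb5. The highest share among the 31 tested genes was 26.4%, for Psmd2, and 19 genes, all tested, shared no window. The wild-type level had a median of 2.02 RPKM and a minimum of 0.820 RPKM in those 19 genes, against a median of 0.218 RPKM and a maximum of 0.262 RPKM in the 4. The boundary of 50% was drawn after these values were seen, no source used here gives the read length, and the part of the copies in the low counts was not tested.

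The following stretches show how little separates 2 of these genes from their copies where they match best. Each is the best-matching stretch of 100 bases in the longest coding exon, so it does not stand for the whole gene. Of all 75-base windows, 35.8% recurred in a gene elsewhere for Psmb5 and 72.5% for Adrm1. The Psmb5 stretch is coding sequence at chr14:54616614-54616713 on the minus strand of GRCm38, and Gm3375 is its processed pseudogene on chromosome 7. Capitals mark the base that differs between them, T81A counted from 1 at the 5′ end of the stretch. The Adrm1 stretch is coding sequence at chr2:180175160-180175259 on the plus strand, and all of its 100 bases recur in Gm9774 on chromosome 3.
Psmb5: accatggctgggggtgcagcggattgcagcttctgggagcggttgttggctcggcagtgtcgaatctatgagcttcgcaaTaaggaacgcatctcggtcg
Gm3375: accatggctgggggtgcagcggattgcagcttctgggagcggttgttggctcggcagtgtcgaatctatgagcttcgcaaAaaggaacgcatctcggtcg
Adrm1: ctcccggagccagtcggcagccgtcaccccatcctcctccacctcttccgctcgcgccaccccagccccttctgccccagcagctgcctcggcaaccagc

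**Figure D2:**
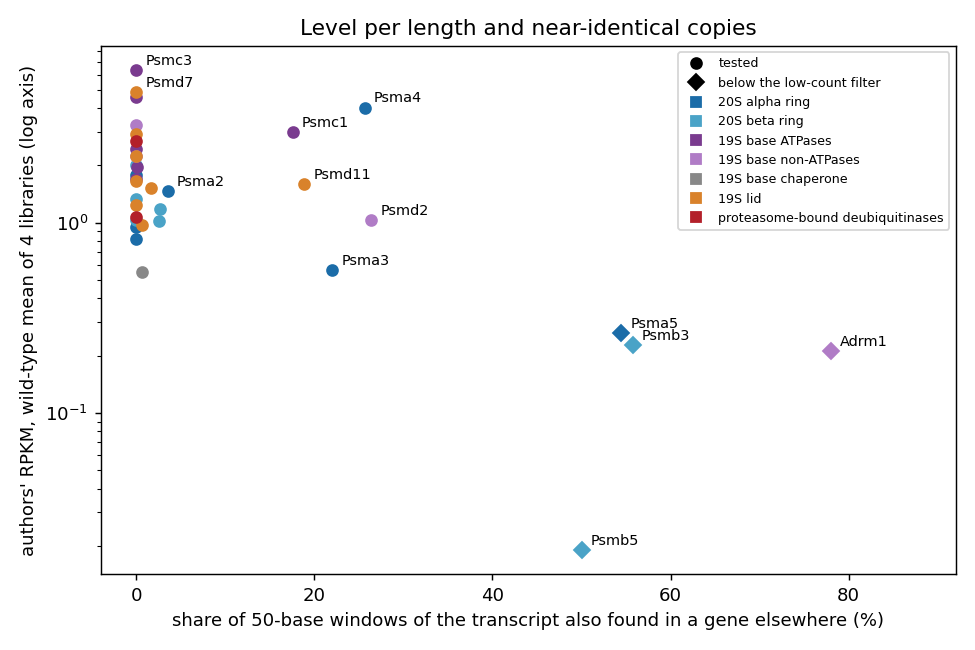
Share of each transcript's 50-base windows that recur in a gene elsewhere (x axis, percent) against the authors' RPKM in wild type (y axis, log scale, mean of 4 libraries) for the 35 genes. The 4 genes that failed the low-count filter lie at 50% to 78.0% and at or below 0.262 RPKM, and the 31 tested genes lie at or below 26.4%.

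Between the genotypes the proteasome genes were spread around no difference. The estimate was above 0 in Tau-P301L for 15 of the 31 tested genes and below 0 for 16, and none passed an adjusted p of 0.05 in edgeR's quasi-likelihood test, in which 0.00816% of all 12250 tested genes did. Their median log2 fold change was -0.02, against -0.00 over all tested genes, whose quartiles were -0.34 and 0.35. Within 0.5 log2 of no difference lay 21 of the 31, where 65.7% of all tested genes lay. Unadjusted p-values below 0.05 were given to 4 of them (Usp14, Psma1, Psmc1 and Psmd8), where 6.35% of all tested genes had one. After TMM scaling, the lowest Tau-P301L library exceeded the highest wild-type library in Usp14, which held for 1.30% of all tested genes. The order was the reverse in Psmc1, which held for 1.18%, but without TMM scaling the Psmc1 groups overlapped. Standard errors of the members ran from 0.29 to 0.78 log2 with a median of 0.49, so differences of the size most of them showed were not detectable at this depth.

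The summed level of all 35 genes was 437 ± 24.0 CPM in wild type (n = 4) and 468 ± 41.0 CPM in Tau-P301L (n = 5), and without Usp14 it was 417 ± 24.4 and 413 ± 23.5 CPM. The 20S genes summed to 80.4 ± 21.2 CPM in wild type and 103 ± 29.1 CPM in Tau-P301L, with ranges that overlapped. After TMM scaling the 19S genes summed to 299.5 to 324 CPM in wild type and to 247 to 298.4 CPM in Tau-P301L. These ranges met almost edge to edge. Without TMM scaling the ranges of the 19S sums overlapped, so their near separation depends on the scaling. By count, 8 of 11 tested core genes had a higher estimate (median log2 fold change 0.44) and 13 of 18 tested regulatory particle genes a lower one (median -0.15), where 49.9% of all tested genes had a higher estimate. No test was made of either group.

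**Figure D3:**
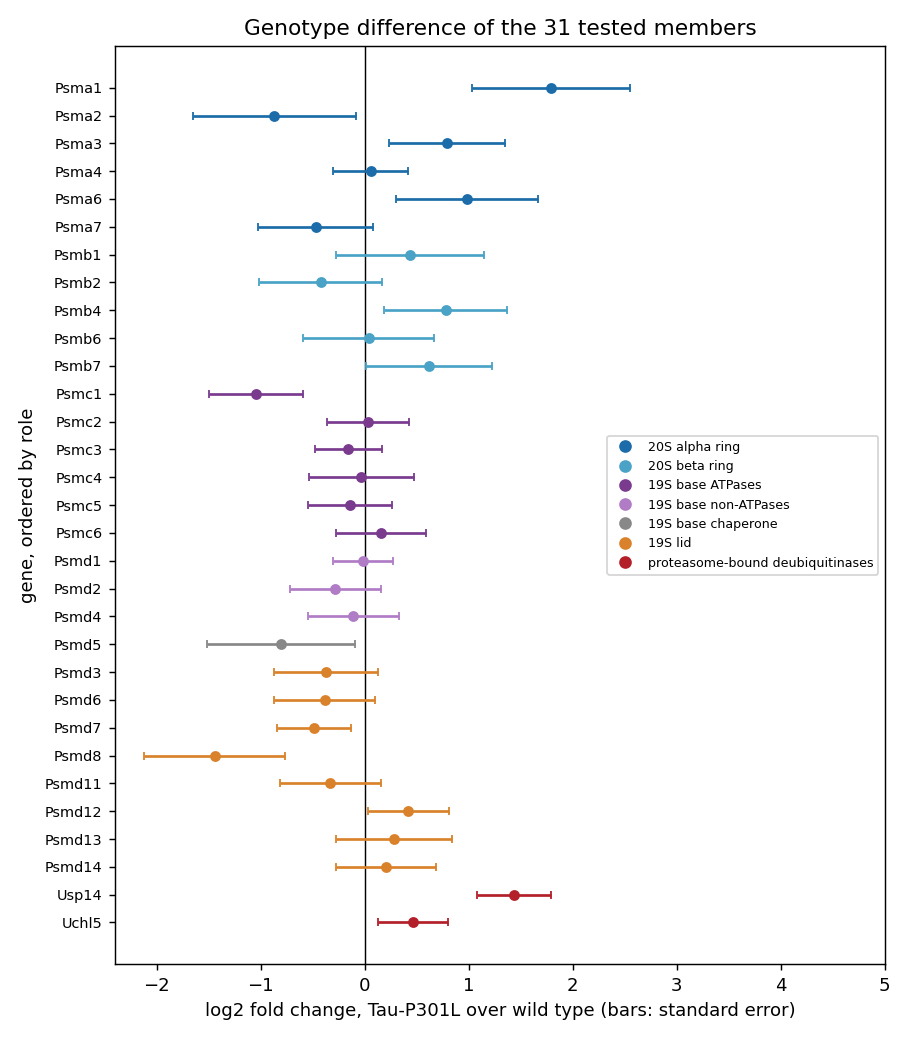
Log2 fold change of Tau-P301L over wild type (x axis) of the 31 tested genes, listed by role, with standard errors from edgeR as bars. Most points lie within 0.5 of 0, Psma1 (1.79) and Usp14 (1.43) lie farthest to the right and Psmd8 (-1.44) and Psmc1 (-1.05) farthest to the left.

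Usp14 showed the clearest separation by genotype. It lies on chromosome 18 at 9993066 to 10045119 (minus strand, GRCm38). The 4 wild-type libraries had 16.7, 15.6, 16.7 and 29.9 CPM (55, 46, 44 and 109 reads). The 5 Tau-P301L libraries had 45.4, 44.9, 102, 44.1 and 38.0 CPM (144, 127, 229, 104 and 55 reads). All Tau-P301L libraries were above all wild-type libraries, library 3 stood far above the other 4, and wild-type library 4 stood above the other 3. The means were 19.7 ± 6.80 CPM (n = 4) and 54.9 ± 26.5 CPM (n = 5), or 1.08 ± 0.362 and 3.04 ± 1.52 RPKM. Its log2 difference of 1.43 (SE 0.36) carried an edgeR adjusted p of 0.403, and Usp14 stood at rank 21 of 12250 genes by p-value. It passed in DESeq2 (adjusted p = 0.0330), in which 0.22% of the genes passed in either direction and 0.163% with a higher level in Tau-P301L, whereas edgeR and limma-voom gave adjusted p-values of 0.0725 to 0.9997 under the other settings. Without Tau-P301L libraries 3 and 5, which stood apart in an earlier analysis of these data, the log2 fold change was 1.25. It was 1.48 in females alone, 1.40 in males alone and 1.39 with the mitochondrial share in the model. Tau-P301L libraries 1 to 5 had astrocyte marker sums of 300.0, 309, 588, 517 and 652 CPM. The part of such cells in their Usp14 values was not tested.

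The 3′ part of Usp14 overlaps Thoc1, which encodes a subunit of the THO complex of mRNA export and is transcribed from the opposite strand. Thoc1 exons cover 2169 bases, or 26.0%, of the exon bases of Usp14, and since counting is not stated to use strand, reads of the overlap cannot be told apart. Thoc1 had 55.7, 61.2, 31.5 and 81.5 CPM in wild type and 106, 81.7, 168, 54.3 and 77.3 CPM in Tau-P301L. Its groups overlapped, and Tau-P301L library 3 was the highest for both genes. Thoc1 differed by 0.76 log2 (SE 0.34, edgeR adjusted p = 0.776), smaller than that of Usp14. How far the 2 genes share these reads was not tested. Exons of 8 further proteasome genes are overlapped by another annotated gene, over 0.342% to 12.1% of their bases.

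Uchl5, the other deubiquitinase that binds the regulatory particle reversibly, had 22.8, 20.0, 26.6 and 22.2 CPM in wild type and 26.8, 32.5, 43.6, 31.8 and 24.8 CPM in Tau-P301L. The groups overlapped at their edges, and Tau-P301L library 3 was again the highest in CPM. Without TMM scaling Tau-P301L library 2 was higher (92 of 2439969 reads, against 98 of 2934587 in library 3). The means were 22.9 ± 2.76 and 31.9 ± 7.32 CPM, and the log2 fold change was 0.47 (SE 0.33). The deubiquitinase built into the lid, Psmd14, which cuts whole chains off substrates, had 8.52, 8.46, 6.08 and 15.6 CPM against 16.1, 7.78, 13.4, 8.91 and 9.66 CPM. Its groups overlapped throughout, with a log2 fold change of 0.20 (SE 0.48).

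**Figure D4:**
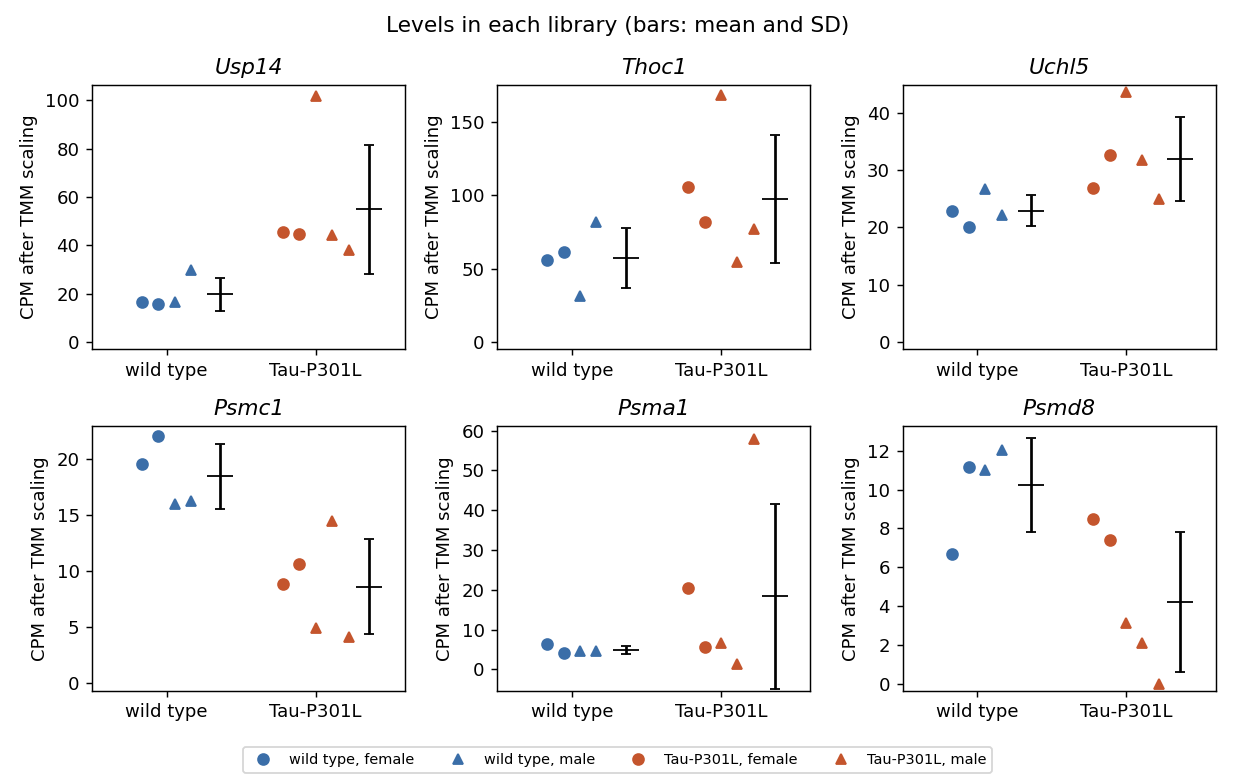
Level (y axis, CPM after TMM scaling) of Usp14, its overlapping neighbour Thoc1, Uchl5, Psmc1, Psma1 and Psmd8 in each wild-type (blue) and Tau-P301L (red) library, with circles for females, triangles for males, and bars for the mean and SD. The genotypes separate in Usp14 and Psmc1, the Psma1 mean of Tau-P301L rests on libraries at 20.5 and 58.0 CPM, and Psmd8 is lowest in the 3 male Tau-P301L libraries.

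In the alpha ring, which gates the entrance to the core, the estimate was above 0 for 4 of 6 tested genes and below 0 for 2. Psma1 had 6.39, 4.06, 4.56 and 4.66 CPM in wild type and 20.5, 5.66, 6.68, 1.27 and 58.0 CPM in Tau-P301L. Libraries 5 and 1 carried the Tau-P301L mean of 18.4 ± 23.3 CPM, and library 4 lay below every wild-type library. The log2 fold change of 1.79 (SE 0.76, edgeR adjusted p = 0.772) was 0.60 without library 5 and 0.79 by limma-voom. Library 5 is also the library in which the oligodendrocyte markers summed to 1423 CPM, and the part of such cells in its Psma1 value was not tested. Psma2 moved the other way, with 6.70, 4.06, 4.94 and 7.13 CPM against 2.21, 6.01, 6.23, 0.848 and 0 CPM, overlapping groups and a log2 fold change of -0.87 (SE 0.78). Psma4, the alpha gene of highest level per length, had 18.6 to 22.8 CPM in wild type and 15.6 to 25.5 CPM in Tau-P301L and a log2 fold change of 0.06 (SE 0.36). The values of Psma3, Psma6 and Psma7 were 0.79 (SE 0.56), 0.98 (SE 0.68) and -0.47 (SE 0.55), all with overlapping groups.

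In the beta ring, which carries the cutting sites, 4 of 5 tested genes had a higher estimate, and all overlapped between genotypes. Psmb6, the caspase-like subunit, had 7.00, 4.74, 5.70 and 3.57 CPM in wild type and 4.73, 9.19, 2.67, 2.54 and 7.59 CPM in Tau-P301L. Its log2 fold change was 0.04 (SE 0.63). Psmb7, the trypsin-like subunit, had 3.96, 5.75, 3.04 and 4.94 CPM against 6.93, 6.72, 4.45, 11.9 and 3.45 CPM. The Tau-P301L libraries were higher in 3 of 5 cases than any wild-type library, and the log2 fold change was 0.62 (SE 0.61). Among the structural subunits, Psmb4 had 8.22, 5.07, 3.42 and 4.11 CPM against 14.5, 3.89, 9.35, 4.24 and 10.4 CPM. That gave the highest estimate of the ring, 0.78 (SE 0.59), with Tau-P301L libraries on both sides of the wild-type mean. Psmb2 had the lowest estimate, -0.42 (SE 0.59), from 8.83, 4.74, 6.84 and 7.95 CPM against 3.47, 7.78, 3.12, 3.39 and 8.97 CPM. Psmb1 had 1.14 to 8.52 CPM in wild type and 3.39 to 8.97 CPM in Tau-P301L (log2 fold change 0.44, SE 0.71).

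The ATPases of the base form the ring that unfolds substrates. Of the 6 genes 5 had estimates between -0.16 and 0.15 log2, and Psmc1 was the exception. Psmc1 had 19.5, 22.0, 16.0 and 16.2 CPM in wild type and 8.82, 10.6, 4.90, 14.4 and 4.14 CPM in Tau-P301L. After TMM scaling every Tau-P301L library was below every wild-type library, with library 4 closest and libraries 3 and 5 lowest. Without TMM scaling Tau-P301L library 4 (34 of 2315737 reads) was above wild-type library 3 (42 of 2897323), so the groups overlapped. The means were 18.4 ± 2.88 (n = 4) and 8.58 ± 4.23 CPM (n = 5), and the difference was -1.05 log2 (SE 0.45, edgeR adjusted p = 0.776), or -0.71 without libraries 3 and 5. Of the windows of Psmc1, 17.6% recur in a gene elsewhere. Psmc3 had 49.9, 58.5, 31.9 and 30.2 CPM against 29.3, 38.5, 38.3, 39.4 and 36.6 CPM, a spread in wild type that separated the 2 females from the 2 males, and a log2 fold change of -0.16 (SE 0.32). Psmc6 had the highest estimate, 0.15 (SE 0.43), from 13.1, 8.79, 16.3 and 12.1 CPM against 22.1, 11.7, 15.1, 9.76 and 11.0 CPM. Psmc2, Psmc4 and Psmc5 had 0.03, -0.03 and -0.14.

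The base also holds the scaffold and receptor subunits. Psmd1, a scaffold, had 39.3, 42.6, 54.7 and 37.0 CPM in wild type and 46.3, 47.4, 43.6, 38.2 and 38.0 CPM in Tau-P301L, with groups that overlapped and a log2 fold change of -0.02 (SE 0.29). Psmd2, the scaffold that also binds ubiquitin-like domains and is the docking site of USP14, had 10.7, 15.6, 16.0 and 9.33 CPM against 8.51, 9.55, 9.35, 14.8 and 11.7 CPM (-0.28, SE 0.44). Psmd4, an intrinsic ubiquitin receptor, had 16.1, 7.10, 14.8 and 12.3 CPM against 11.7, 12.7, 12.9, 13.1 and 7.59 CPM (-0.11, SE 0.44). None of the 3 separated by genotype. Psmd5, a chaperone of base assembly that is absent from the finished particle, had 5.17, 3.04, 4.56 and 5.76 CPM against 5.36, 2.83, 1.34, 2.54 and 1.38 CPM. Its estimate was -0.80 (SE 0.71), and 4 of 5 Tau-P301L libraries, with 8, 3, 6 and 2 reads, lay below the lowest wild-type library.

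The lid surrounds the deubiquitinase PSMD14. The estimate was above 0 for 3 of its 8 genes and below 0 for 5, with a median of -0.35. Psmd8, the subunit that joins the lid last, had 6.70, 11.2, 11.0 and 12.1 CPM in wild type and 8.51, 7.42, 3.12, 2.12 and 0 CPM in Tau-P301L. The 3 male Tau-P301L libraries, with 7, 5 and 0 reads, were below every wild-type library, whereas the 2 female ones lay within the wild-type range. In Tau-P301L library 5 a count of 3 reads is 2.07 CPM, so these few reads limit the comparison of the sexes. The means were 10.2 ± 2.41 and 4.23 ± 3.61 CPM, and the difference was -1.44 log2 (SE 0.68, edgeR adjusted p = 0.776), or -0.88 without libraries 3 and 5. It was -0.16 in females alone and -2.61 in males alone. Psmd12, a structural subunit of the lid, had the highest estimate, 0.42 (SE 0.39), from 14.6, 25.4, 12.9 and 29.9 CPM against 30.3, 23.7, 43.6, 19.1 and 22.8 CPM. Its groups overlapped, and Tau-P301L library 3 was the highest in CPM, as in Usp14 and Uchl5. Without TMM scaling wild-type library 4 was higher for Psmd12 (109 of 3045349 reads, against 98 of 2934587 in Tau-P301L library 3). Psmd3, Psmd6, Psmd7 and Psmd11 had estimates of -0.37, -0.39, -0.49 and -0.33, and Psmd13 had 0.28.

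Sex is a contrast that the choice of genes did not use. None of the 31 tested genes differed between males and females (edgeR adjusted p of at least 0.9999), where 0.0490% of all 12250 tested genes passed, and none had an unadjusted p below 0.05, where 2.43% of all tested genes did. By estimate 12 were higher and 19 lower in males, with a median of -0.05 log2, where 51.0% of all tested genes were higher in males. The smallest p-values belonged to Usp14 and Uchl5 among those with a higher estimate in males, at 0.49 (SE 0.35) and 0.18 (SE 0.33) log2, and to Psmd8 and Psmd3 among those with a lower one, at -0.89 (SE 0.68) and -0.54 (SE 0.50). The Psmd8 estimate had the opposite sign, 0.36, in wild type alone.

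The interaction asks whether the genotype difference itself differed by sex. No gene passed, neither of the 31 nor of all 13302 genes tested for it (0.0% by edgeR), and 526 of the 13302 (3.95%) but none of the 31 had an unadjusted p below 0.05. DESeq2 called 4 genes among all, none of them a proteasome gene. The estimates farthest from 0 by p-value were 0.97 (SE 0.63) for Psmc3, 1.70 (SE 1.37) for Psmb1, -2.45 (SE 1.27) for Psmd8 and -1.64 (SE 0.996) for Psmc4. For Usp14 the estimate was -0.09 (SE 0.72), an error wide enough to leave sizeable differences between the sexes undetected.

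The genes around the proteasome were described from lists of the same pathway, which share the limits above, and none of the 55 tested genes in them passed the test for genotype. The immunoproteasome and PA28 activator genes had 3 higher and 2 lower estimates. Psmb8, which replaces Psmb5 in the immunoproteasome, had 13.7, 7.44, 13.7 and 13.7 CPM in wild type and 7.88, 7.78, 11.1, 6.79 and 5.52 CPM in Tau-P301L, with a log2 fold change of -0.63 (SE 0.47). All 5 Tau-P301L libraries lay below 3 of the wild-type libraries, and the fourth wild-type library lay among them. Psmb9, the counterpart of Psmb6, had 4.26, 5.41, 2.28 and 3.29 CPM against 7.88, 2.47, 0, 1.27 and 1.38 CPM (-0.74, SE 0.83). Psmb10, the counterpart of Psmb7, had 9.13, 6.76, 14.1 and 13.2 CPM against 13.6, 18.7, 43.2, 7.63 and 5.52 CPM (0.72, SE 0.53). The 3 genes thus had no common direction. Psme1, a PA28 subunit, was at 28.5 ± 5.48 CPM in wild type and 34.7 ± 5.09 CPM in Tau-P301L (0.26, SE 0.32), and Psme2, its partner, was at 3.22 ± 1.87 and 4.16 ± 3.10 CPM (0.45, SE 0.78).

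The immunoproteasome subunits were compared per length with the constitutive subunits they replace. In wild type Psmb8 stood at 2.22 ± 0.567 RPKM, Psmb10 at 1.69 ± 0.543 RPKM and Psmb9 at 0.557 ± 0.195 RPKM. The ratio of Psmb10 to Psmb7 was 1.81 ± 0.962 in wild type (n = 4) and 2.24 ± 2.44 in Tau-P301L (n = 5), where library 3 reached 6.50. The ratio of Psmb9 to Psmb6 was 0.503 ± 0.215 and 0.342 ± 0.434. Both ratios overlapped between genotypes. No ratio was formed for Psmb8, because its counterpart Psmb5 had 2 reads in all.

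**Figure D5:**
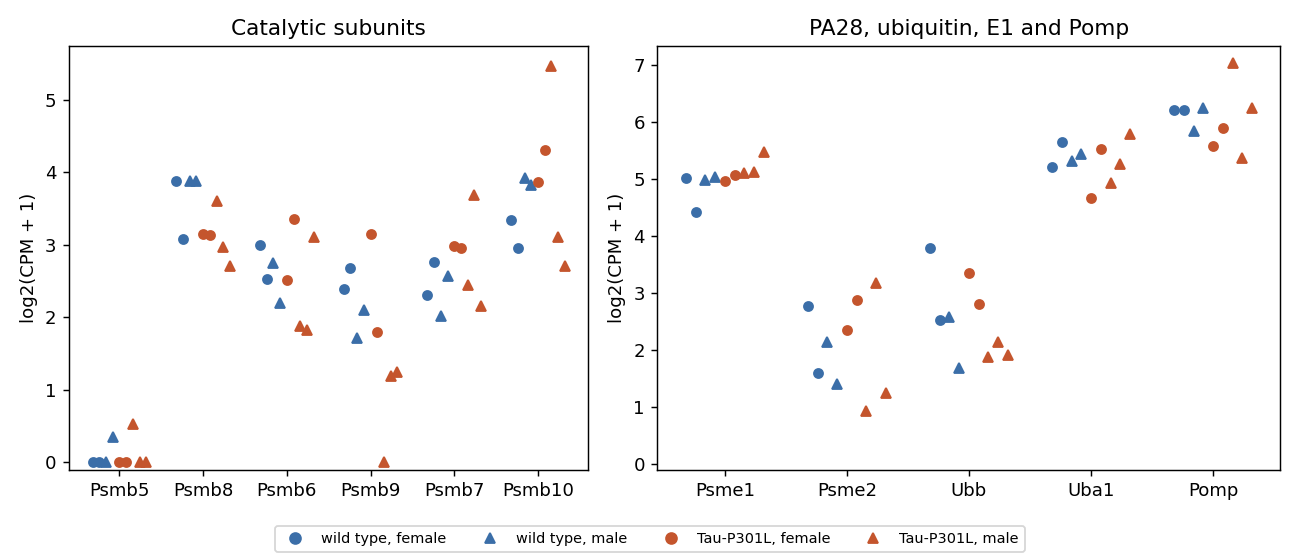
Levels (y axis, log2(CPM + 1) after TMM scaling) of the immunoproteasome and PA28 genes and of other genes of the ubiquitin pathway in each library, wild type in blue and Tau-P301L in red, with circles for females and triangles for males. The genotypes overlap for the genes shown, and Psmb5 lies at or near 0.

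Among the ubiquitin genes and E1 enzymes, the estimate was above 0 for 1 of 4 tested genes and below 0 for 3. Uba6, an E1 enzyme, had 23.4, 13.5, 20.9 and 29.1 CPM in wild type and 24.6, 25.1, 64.1, 22.9 and 17.3 CPM in Tau-P301L. Its groups overlapped, with Tau-P301L library 3 the highest, and the log2 fold change was 0.46 (SE 0.40).

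The transcriptional control list had 4 higher and 2 lower estimates. Nfe2l1, the factor that raises proteasome genes when the proteasome is inhibited, had -0.32 (SE 0.30) and the related Nfe2l2 had 0.09 (SE 0.22). Ngly1, the glycanase that activates NFE2L1, went from 6.50 ± 3.04 CPM in wild type to 13.3 ± 5.79 CPM in Tau-P301L (log2 fold change 1.13, SE 0.52, edgeR adjusted p = 0.776). Keap1, which holds NFE2L2 down, went from 10.8 ± 3.34 to 5.10 ± 3.18 CPM (-1.04, SE 0.58, edgeR adjusted p = 0.789). Both overlapped between genotypes. In the RefSeq promoter windows of GRCm38.p6, 300 bases each, 28 of the 35 genes were matched. The core of the antioxidant response element, TGACNNNGC on either strand, occurred in 6 of the 28 genes (21.4%: Uchl5, Adrm1, Psmb5, Psmb6, Psmc6 and Psmd12) and in 13.99% of 27025 genes. The CCAAT box, on either strand, occurred in 11 of the 28 (39.3%) and in 41.1% of all genes.

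The remaining lists held no gene that passed. The assembly chaperones had 2 higher and 2 lower estimates, with Pomp, the maturation factor of the core, at 69.4 ± 8.81 CPM in wild type and 70.0 ± 35.7 CPM in Tau-P301L (-0.05, SE 0.33), Psmg1 at -0.24 (SE 0.69) and Psmg2 at 0.17 (SE 0.66). Other activators and inhibitors had 3 higher and 3 lower estimates, with Ecpas, an adaptor of the 26S particle, at 0.13 (SE 0.22) and Sem1, a small component of the lid, at 0.31 (SE 0.84). Shuttle factors and p97 genes had 7 higher and 5 lower estimates, with Zfand5, a proteasome activator, at 0.52 (SE 0.32) and Nploc4, a p97 cofactor, at -0.72 (SE 0.44). Proteasome-linked ubiquitin ligases had 1 higher and 5 lower estimates, with Ube3a at 0.36 (SE 0.23) and Huwe1 at -0.25 (SE 0.20). Deubiquitinases that do not belong to the particle had 6 higher and 6 lower estimates, with Atxn3 at 0.79 (SE 0.38) and Otub1 at -1.14 (SE 0.57). The medians of the 8 lists ran from -0.30 for the ligases to 0.26 for the immunoproteasome list.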

How the data were processed

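Each of the 9 libraries came with 1 deposited table of gene numbers, with the read count per gene model (uniquely aligned reads) and RPKM adjusted by the authors with 1 size factor per library, per the file headers. GSNAP and GRCm38 are named in the submitters' processing notes; no version, annotation, strand setting, read length or read filter is given in the sources used here. RPKM and count were checked to differ by a constant per gene and library (largest relative deviation 1.7e-14). A symbol was found for 31049 of 36528 gene numbers, and the others stayed in library sizes and tests.

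Tests used the counts as deposited in edgeR's quasi-likelihood test (edgeR 4.0.16, R 4.3.3) with TMM scaling, edgeR's default low-count filter, Benjamini-Hochberg adjustment over all tested genes and a threshold of 0.05. Genotype and sex came from a model with both terms (12250 genes, 6 residual degrees of freedom). A second model added their product for the interaction (13302 genes, 5 residual degrees of freedom). The biological coefficient of variation was 0.464. CPM are after TMM scaling, as mean ± SD, and standard errors were derived from the F statistic. The procedure was tested on simulated data, in 5 runs with 200 changed genes each among 12250. It called 0.8% of changes of 0.5 log2, 9.6% of 1 log2, 59.6% of 2 log2 and 76.4% of 3 log2. False calls numbered 16 over the 5 runs. Alternatives were DESeq2 1.42.0, limma-voom (limma 3.58.1), other scaling, filters and covariates, and leaving out libraries. Sequence windows of 50 bases were compared within GENCODE M21 transcripts. At this depth 3 reads, the limit that a count of 0 allows, are 0.823 to 2.07 CPM after TMM scaling, and this covers counting error only.

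The genes, their lists and the tests were chosen with earlier results of these data known, so no p-value or count is independent support for the choice. Values per library are given for the deubiquitinases, catalytic subunits, ubiquitin receptors and, in each role, the genes with the highest and lowest genotype estimates. Each further list gives its 2 genes of smallest p-value. A result that this rule would name is not reported here. Thoc1, Pomp, Nfe2l1 and Nfe2l2 were named outside this rule, after their values were seen. Of the listed genes, Paaf1 matched no row and was not analysed here.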

Additional observations from a re-analysis of the deposited data

Results flagged for a closer look

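Of 72 groups of libraries examined (36 genes in 2 genotypes), 8 held a library far from the others of its group. The nominal rate of the rule, about 1 in 20 groups or 3.6 of 72, assumes independent and normally distributed values. These values are CPM from low counts of genes that share libraries, and the rate over all tested genes was not computed. The count of 8 is therefore not read as an excess. Among the 8 groups, Usp14 had 102 CPM in Tau-P301L library 3, where the other 4 had 38.0 to 45.4 CPM. It had 29.9 CPM in wild-type library 4, where the other 3 had 15.6 to 16.7 CPM. Psmc5 had 6.36 CPM in Tau-P301L library 4, against 23.2 to 31.8 CPM in the other 4. Psmc3 had 29.3 CPM in Tau-P301L library 1, against 36.6 to 39.4 CPM. Psmd4 had 7.59 CPM in Tau-P301L library 5, against 11.7 to 13.1 CPM. Psmd8 had 6.70 CPM in wild-type library 1, against 11.0 to 12.1 CPM in the other 3. In wild-type library 2, Psmb8 had 7.44 CPM, against 13.7 CPM in each of the other 3, and Psme1 had 20.3 CPM, against 30.4 to 31.8 CPM.

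For 2 genes the libraries of the genotypes did not overlap within either sex after TMM scaling, with opposite directions in females and males. The share of all tested genes with this pattern was not counted. With so few libraries per sex it can arise by chance, so it is not read as a result about these genes. The interaction was 0.97 log2 for Psmc3, whose Tau-P301L libraries were lower than wild type in females and higher in males, and -1.64 log2 for Psmc4, where the order was the other way round. Neither passed the test of the difference itself (edgeR adjusted p = 0.99999 for both). Without TMM scaling the Psmc3 libraries of the genotypes overlapped in both sexes.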

How the results depend on the processing

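The count of proteasome genes called for genotype was 0 under all alternatives run except DESeq2, which called 1, Usp14. Over all tested genes, the count called for genotype was 1 in edgeR, 27 by DESeq2 (20 higher and 7 lower), 26 without the low-count filter, 0 without Tau-P301L libraries 3 and 5, 0 in females alone, 0 in males alone and 0 to 1 when each library was left out in turn. The count called for sex was 6, and it was 16 without the low-count filter and 10 without Tau-P301L libraries 3 and 5. For the interaction it was 0, and it was 4 by DESeq2, 22 without the filter, 1 without Tau-P301L libraries 3 and 5 and 0 to 4 when each library was left out (4 without Tau-P301L library 4, 3 without wild-type library 4 and 1 without Tau-P301L library 2). No proteasome gene was among those called for sex or the interaction under any of these. The cause of these shifts was not tested. The median genotype estimate of the tested proteasome genes ran from -0.11 to 0.10 log2 over the left-out libraries. The genotype estimate of 18 of the 31 genes kept its sign under every alternative, Usp14 (1.15 to 1.64), Psmc1 and Psmd8 among them, and that of 13 changed sign under at least 1. The sex estimate of Psmd8 was 0.36 in wild type alone, the reverse of -0.89 over all libraries. No paired analysis was possible because the labels give no replicate numbers, and libraries were numbered only in accession order. Of the 31 genes, 22 lie below the median level of tested genes, where fewer reads stand behind each value.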
